A study of Mus musculus with 14 samples.

Results

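Among the genes measured in single cells sorted as tumour dendritic cells, 37 encode the machinery that copies DNA in S phase or supply it, out of 21205 genes in the table. They were named as a list of symbols, from the MCM helicase genes to Slbp, and all 37 were found in the table. The cells were sorted as cDC1, the dendritic cells that present tumour antigen to CD8 T cells. They were sorted 1 by 1 from tumours of the mouse melanoma line YUMM1.7 under the skin of female mice, and each of 14 plates stands for 1 tumour. Markers of other cell types were found among them, as given below. The genotype Irf1_dXCR1 had 5 plates and 223 cells, from mice of 6 weeks. Its control, Irf1_FF, had 4 plates and 165 cells from mice of 6 weeks. The Ikbkb_dXCR1 group had 4 plates and 133 cells, from 2 mice of 8 weeks and 2 of 6 weeks. Its control, Ikbkb_FF, had 1 plate and 34 cells, from a mouse of 8 weeks. Irf1 makes a transcription factor of the interferon response, and Ikbkb makes IKKβ, a kinase that activates NF-κB. The labels give the genotypes by these names only, without the alleles, and all Irf1 plates belong to experiment M3 and all Ikbkb plates to M2. The series title names an axis of NF-κB and IRF1 in cDC1, and the genotypes allow the replication genes to be compared between each of the 2 dXCR1 groups and its FF group. With 1 plate per tumour, p-values measure the spread between plates.

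Depth varied between plates, from 2810321 to 10120557 unique molecular identifiers (UMIs) over 18 to 59 cells, and the median cell of a plate held 705 to 2241 genes. The targeted transcripts are no check of the labels. Reads came from the 5′ end, and the labels do not say which part of a gene was removed. Irf1 had 336, 149, 337, 98.2 and 218 counts per 1000000 UMIs (CPM) in Irf1_dXCR1 plates, against 200.5, 435, 353 and 378 CPM in Irf1_FF plates, and Ikbkb had 111, 259, 277 and 309 CPM in Ikbkb_dXCR1 plates, against 291 CPM in Ikbkb_FF. The summed level of the 14 cDC1 markers was 5455 to 7828 CPM in Irf1_dXCR1 and 4795 to 7720 CPM in Irf1_FF plates. Irf1_dXCR1 replicate 2 stood lowest in genes per cell, at a median of 705, and held only 18 of the 37 members, against 22 to 37 in the other 13 plates.

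A cell that is about to divide first licenses its replication origins. The MCM helicase, loaded with Cdc6 and Cdt1, is activated by Cdc45 and the GINS complex, and DNA polymerases then copy both strands while the sliding clamp PCNA, set in place by the RFC loader, holds them to the template. Most of these genes are switched on by E2F transcription factors at the passage from G1 to S phase, so they are used to tell replicating cells from resting ones. Dendritic cells arise from dividing precursors and are thought of as largely resting once mature, which is the background for asking where among the sorted cells these genes were found.

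E2F proteins bind a short motif, written here as TTTCCCGC, TTTCGCGC, TTTGCCGC or TTTGGCGC, and the promoter windows of these genes were searched for it on both strands. The windows, from RefSeq on build GRCm38.p6, run from 250 bases before to 50 bases after each annotated start, and 30 of the 37 members matched by symbol. A match was present for 11 of the 30 matched members, or 36.7%, and in 2.60% of all 27025 genes with a window. Counted by window, it was 11 of 35 for members, or 31.4%, and 2.26% of all 32851. The CCAAT box, another common promoter element, was found for 18 of the 30 members, or 60%, and for 41.1% of all genes. A match is a description of letters, not evidence of binding, and no match says only that these letters are not in the window. A few windows are shown, in the 200 bases before the start, with E2F matches in capitals. The helicase subunits Mcm5, Mcm6 and Mcm7 and the loading factor Cdc6 were picked because they have a match there, and Pcna, the clamp, had none. Among the helicase and licensing members not shown, Mcm2, Mcm10 and Cdc45 had no match, and Mcm3 and Cdt1 had matches only after the start. Another window of Mcm7 had none.
Mcm5, chr8:75109309-75109508, plus strand: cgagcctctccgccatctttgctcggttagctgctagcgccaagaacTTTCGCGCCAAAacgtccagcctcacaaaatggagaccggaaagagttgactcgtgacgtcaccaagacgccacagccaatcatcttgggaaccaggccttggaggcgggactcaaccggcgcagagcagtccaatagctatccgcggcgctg
Mcm6, chr1:128359706-128359905, minus strand: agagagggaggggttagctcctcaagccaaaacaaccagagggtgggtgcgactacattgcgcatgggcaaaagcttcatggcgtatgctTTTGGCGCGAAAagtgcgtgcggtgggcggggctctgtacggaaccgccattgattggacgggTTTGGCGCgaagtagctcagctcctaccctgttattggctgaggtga
Mcm7, chr5:138171884-138172083, minus strand: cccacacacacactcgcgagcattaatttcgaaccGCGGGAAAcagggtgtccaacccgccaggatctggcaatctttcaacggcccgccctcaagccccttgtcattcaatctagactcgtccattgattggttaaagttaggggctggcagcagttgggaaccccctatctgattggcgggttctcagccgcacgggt
Cdc6, chr11:98907951-98908150, plus strand: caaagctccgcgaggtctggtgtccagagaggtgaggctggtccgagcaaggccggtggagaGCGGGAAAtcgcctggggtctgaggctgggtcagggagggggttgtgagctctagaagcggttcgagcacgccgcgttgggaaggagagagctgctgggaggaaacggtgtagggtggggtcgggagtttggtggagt
Pcna, chr2:132253181-132253380, minus strand: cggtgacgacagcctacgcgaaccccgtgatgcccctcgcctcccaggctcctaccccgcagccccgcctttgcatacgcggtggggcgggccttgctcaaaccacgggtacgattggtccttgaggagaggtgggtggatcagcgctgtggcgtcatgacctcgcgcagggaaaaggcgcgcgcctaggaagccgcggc
In Mcm5 and in the distal part of Mcm6 a match on the plus strand overlaps one on the minus strand, so that each pair is a single stretch of letters. Mcm6 has a further match 47 bases before its start, and Mcm7 has another after its start, outside the stretch shown.

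The members were rare transcripts, and their detection varied widely among themselves. Each was found in 6 to 177 of the 555 cells, the fewest for Chaf1a, a subunit of the chromatin assembly factor CAF-1, and the most for Slbp, the stem-loop binding protein of histone mRNA. Of all cells 136 held none of the members and 114, or 20.5%, held 5 or more of them. Just under and at that limit 37 cells held 4 members and 22 held 5, and 19 cells held 20 or more. Cells were put into classes by 3 marker genes: 149 had at least 1 UMI of Xcr1, the chemokine receptor gene of cDC1, and none of Ccr7; 170 had Ccr7, which marks mature, migrating dendritic cells; and 73 had C1qa, a complement gene of macrophages, including 8 of the first and 16 of the second class. Another 187 cells fell in none of these classes. Cells with 5 or more members made up 58 of 149 Xcr1+ Ccr7- cells (38.9%, 95% exact binomial interval 31.1 to 47.2%), 14 of 170 Ccr7+ cells (8.24%, 4.58 to 13.4%), 9 of 73 C1qa+ cells (12.3%, 5.80 to 22.1%) and 36 of 187 cells of no class (19.3%, 13.9 to 25.6%). The intervals cover counting error only.

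All 37 members were detected in a larger share of Xcr1+ Ccr7- cells than of the other classes, where 52.2% of the 13158 genes found in 6 or more cells were so, and those cells also held the most genes, with a median of 2099, against 1388 in Ccr7+, 1577 in C1qa+ and 1341 in the remaining cells. The shares below are of Xcr1+ Ccr7-, Ccr7+, C1qa+ and remaining cells in that order. Pcna, the clamp, was found in 49.7%, 19.4%, 27.4% and 27.8% of them. Rfc2, a subunit of the clamp loader, was found in 44.3%, 20%, 26% and 25.7%. The Ccr7+ share was the lowest for both. Slbp stood at 41.6%, 27.6%, 31.5% and 27.8%, above 27% in each class. The helicase subunits differed more between classes: Mcm3 was found in 30.2%, 5.29%, 9.59% and 10.7%, Mcm6 in 30.9%, 4.71%, 9.59% and 13.9% and Mcm5 in 26.2%, 5.29%, 5.48% and 8.02%. Fen1, the nuclease that trims lagging-strand flaps, was found in 32.9%, 12.9%, 16.4% and 9.63%, and Rrm2, the small subunit of ribonucleotide reductase, in 12.1%, 3.53%, 6.85% and 6.95%. Uhrf1, which recognises newly copied, half-methylated DNA, was found in 12.8%, 10%, 4.11% and 4.81%, so that its Ccr7+ share came near its Xcr1+ Ccr7- share. The least detected members were Pole, the catalytic subunit of the leading-strand polymerase, in 7 cells, and Chaf1a in 6. Where a member was present it was well covered, with a median of 89 UMIs over 1995 non-zero values, and no value reached 900 UMIs, near the most that UMIs of 5 bases can count.

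**Figure D1:**
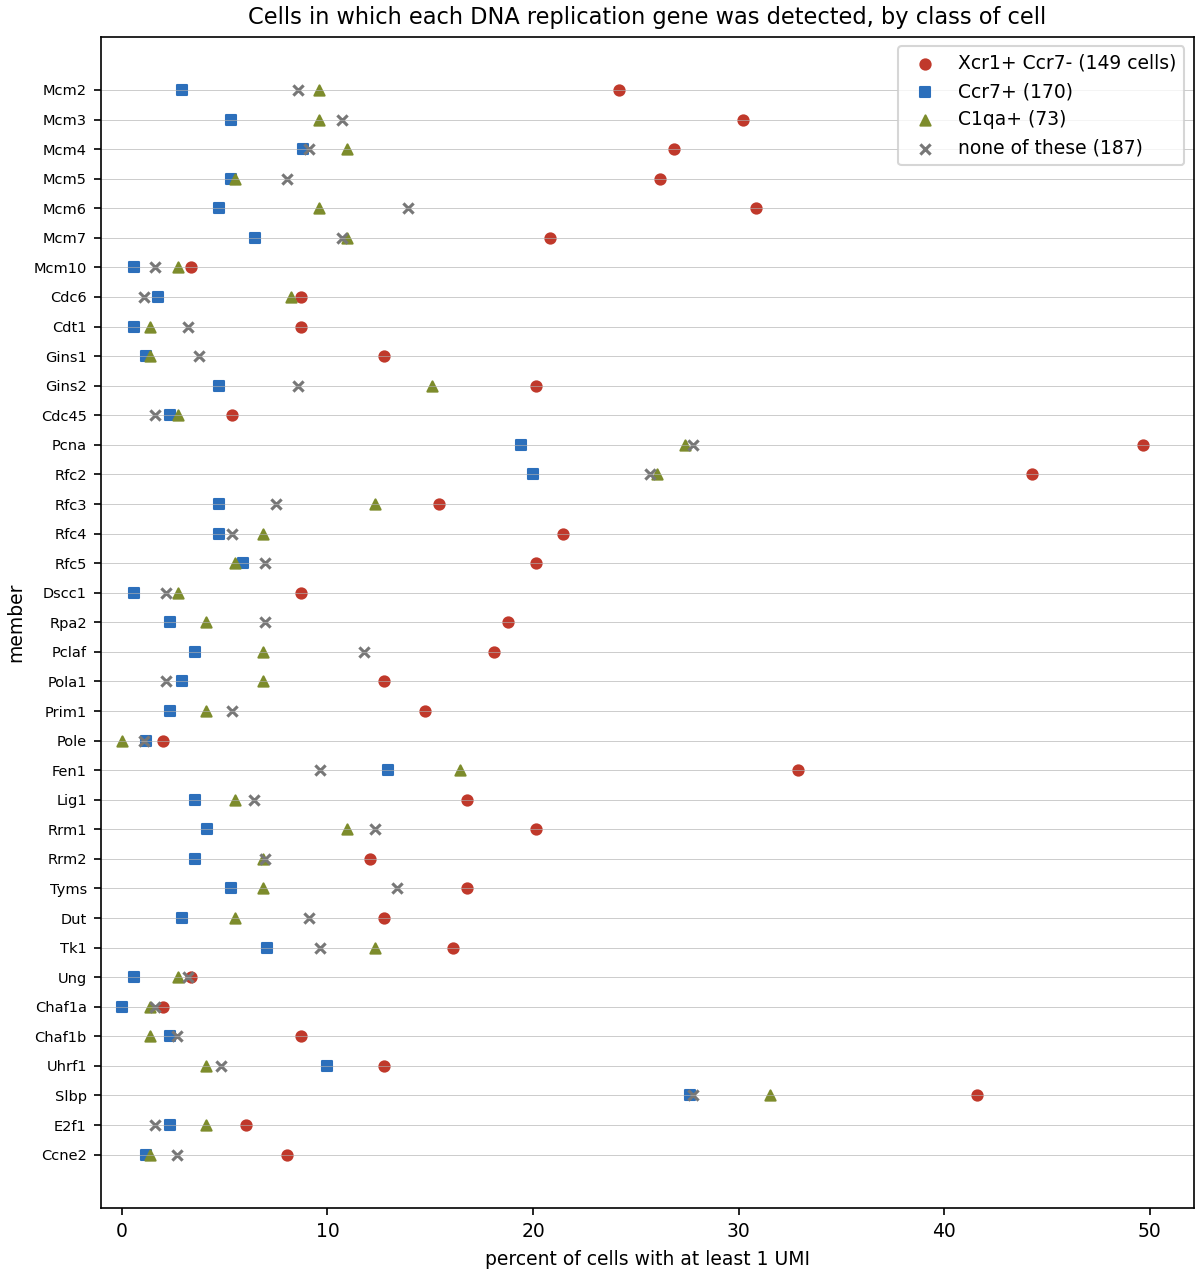
Percent of cells with at least 1 UMI of each of the 37 members (x axis) for Xcr1+ Ccr7- (red circles), Ccr7+ (blue squares), C1qa+ (green triangles) and remaining cells (grey crosses). The red circles lie to the right of the other symbols for all 37 members, from 2.01% for Pole and Chaf1a to 49.7% for Pcna.

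The members differed in how many others were found beside them. A cell with Pcna, Slbp or Rfc2 held a median of 3, 3 and 3.5 other members, against 1 in cells without them, and cells with E2f1, a transcription factor, held a median of 2.5 others, against 2. At the other end, cells with Ccne2, the cyclin that opens S phase, held a median of 22 others, those with Cdc45 21, Pole 20 and Cdc6 19, against 2 in cells without each. The helicase subunits lay between, with 8 for Mcm6 and 13 for Mcm5, against 1. The polymerase and lagging-strand members ran from 7 to 20 and the nucleotide supply members from 6 to 17. In the Xcr1+ Ccr7- class, Rrm2, Dut (a dUTPase), Cdc45, Ccne2 and Dscc1 (a factor of the alternative clamp loader) were each found in 8 to 19 of the 58 cells with 5 or more members and in none of the 91 others, and 4 sparser members in 3 to 5 and none, whereas Pcna was found in 46 and 28 and Slbp in 43 and 19. Since these counts define the cells, they are a description.

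The number of members per cell followed the number of genes per cell. Over all 555 cells Spearman's rho was 0.67 and within single plates it ran from 0.26 (Irf1_dXCR1 replicate 2) to 0.72. Of the 139 cells with the fewest genes (279 to 891) 2.88% held 5 or more members, and of the 139 with the most (2194 to 4608) 56.1% did. Points share a library and a depth, so the correlation is a description. Each cell was also thinned to 40000 UMIs, which left out 74 shallower cells. This did not level the genes detected, as rho of members with genes per cell was still 0.62 over the 481 thinned cells. The share with 5 or more members was then 37.6% of 141 Xcr1+ Ccr7- cells, 9.22% of 141 Ccr7+ cells, 15% of 60 C1qa+ cells and 19.3% of 161 remaining cells, and unthinned it was 39.7%, 9.93%, 15% and 21.7% of the same cells. Among the 139 cells with the most genes, 45 of 62 Xcr1+ Ccr7- cells and 8 of 24 Ccr7+ cells had 5 or more.

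Plate by plate, the share of Xcr1+ Ccr7- cells with 5 or more members was higher than that of Ccr7+ cells in 13 of 14 plates, the exception being Ikbkb_dXCR1 replicate 1 at 16.7% and 20%. Over the plates it was 37.7 ± 17.2% in Xcr1+ Ccr7- and 7.59 ± 7.61% in Ccr7+ cells (SD, n = 14), a difference of 30.1 percentage points. After thinning the shares were 36.5 ± 15.3% and 8.81 ± 10.1% (SD, n = 14), a difference of 27.7 points. The Xcr1+ Ccr7- share was again higher in 13 of 14 plates, but thinning did not level the genes detected per cell. The classes and the limit of 5 were taken with these shares known, so the difference is a description and is given no test. Since a plate held as few as 4 cells of a class, single plates are imprecise, and detection of Xcr1 itself depends on depth.

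**Figure D2:**
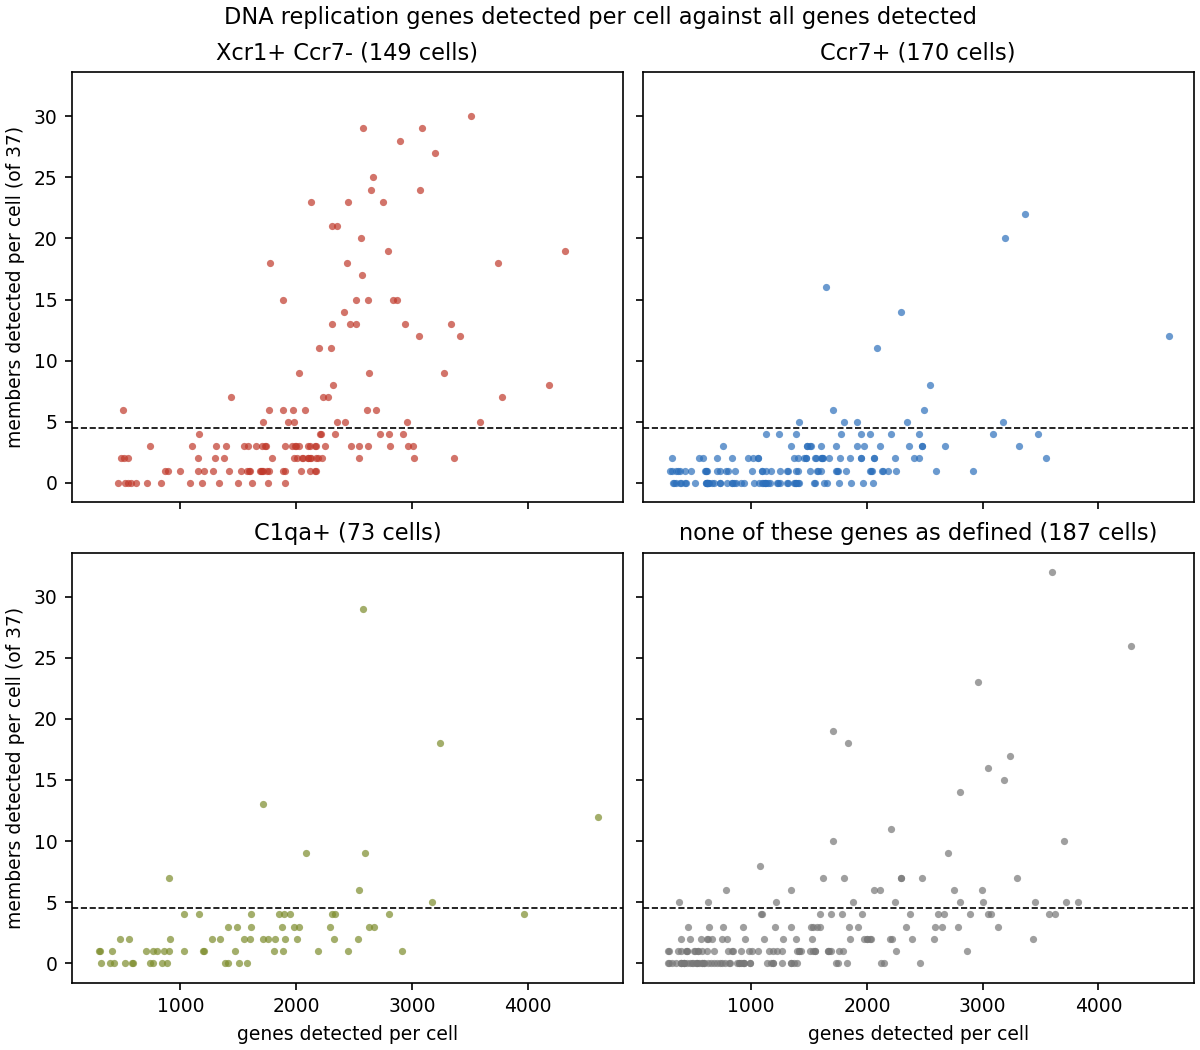
Number of the 37 members detected in each cell (y axis) against all genes detected in it (x axis), in 4 panels by class of cell, with the dashed line between 4 and 5 members. Cells with C1qa that also belong to the Xcr1+ Ccr7- or Ccr7+ class (8 and 16) appear in both panels. Cells above 10 members are most numerous in the Xcr1+ Ccr7- panel.

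Most of the 114 cells with 5 or more members carried cDC1 genes. At least 3 of the 14 cDC1 markers were found in 97 of these 114 cells and in 282 of the 441 others, and at least 3 macrophage markers in 15 and 73. At least 3 mature dendritic cell markers were found in 16 and 150. Of the 36 cells of no class with 5 or more members, 23 held at least 3 cDC1 markers, 10 at least 3 fibroblast markers, 3 at least 3 macrophage markers and 2 at least 3 T cell markers. The summed level of 3 melanoma markers was at most 26.5 CPM in a plate. The other 4 listed were not in the table under their symbols. Tumour cells with little RNA of these 3 genes would be missed. Of the genes listed here under G2 and M phase, Top2a, a topoisomerase, or Mki67, the Ki-67 gene, was found in 41 of the 114 cells with 5 or more members. It was so in 21 of the 441 others, and in 20 of 58 and 4 of 91 among Xcr1+ Ccr7- cells. Depth differs with the number of members, since median genes were 2485 in the 114 cells and 1376 in the others, and its part in these shares was not tested.

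Across genotypes, the plate values of the replication genes overlapped between Irf1_dXCR1 and Irf1_FF for 36 of the 37 members. The values below sum all cells of a plate, so that fewer replicating cells and less RNA per cell cannot be told apart. Among the licensing and helicase genes, Mcm3 (chromosome 1, 20802968 to 20820312, build GRCm38), a subunit of the helicase ring, had 88.5, 7.83, 20.5, 145 and 99.7 CPM in the 5 Irf1_dXCR1 plates, against 152, 98.9, 52.7 and 194 CPM in the 4 Irf1_FF plates. Its groups overlapped, with Irf1_dXCR1 replicates 2 and 3 low. Another ring subunit, Mcm6 (chromosome 1, 128331590 to 128359664), had 3.43, 0, 54.4, 104 and 135 CPM in the 5 Irf1_dXCR1 plates, against 156, 78.6, 111 and 194 CPM in the 4 Irf1_FF plates. The Irf1_FF plates were all above 75 CPM, while Irf1_dXCR1 replicates 1 and 2 were near or at 0. Mcm7 (chromosome 5, 138164583 to 138172422) had 23.6, 17, 28.2, 115 and 47.6 CPM in the 5 Irf1_dXCR1 plates, against 95.4, 70.6, 151 and 139 CPM in the 4 Irf1_FF plates. Here Irf1_dXCR1 replicate 4 overlapped the Irf1_FF range and the other 4 plates lay under it. Mcm10 (chromosome 2, 4989714 to 5012791), which joins the helicase at activation, had 0, 0, 1.88, 0 and 0 CPM in the 5 Irf1_dXCR1 plates, against 0, 28.6, 0 and 19.4 CPM in the 4 Irf1_FF plates. It was absent from 4 Irf1_dXCR1 plates and 2 Irf1_FF plates.

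The clamp and its loader include 2 of the most abundant members, Pcna and Rfc2. Pcna (chromosome 2, 132249162 to 132253314) had 169.5, 129, 186, 292 and 175 CPM in the 5 Irf1_dXCR1 plates, against 198, 215, 201 and 347 CPM in the 4 Irf1_FF plates. The groups overlapped, and Irf1_FF replicate 4 stood highest. The loader subunit Rfc2 (chromosome 5, 134581366 to 134601805) had 212, 75.2, 211, 248 and 233 CPM in the 5 Irf1_dXCR1 plates, against 171, 268, 88 and 164 CPM in the 4 Irf1_FF plates. Irf1_dXCR1 replicate 2 stood lowest. Rfc5 (chromosome 5, 117378103 to 117389047), another loader subunit, had 30.3, 0, 48.3, 20.4 and 48.9 CPM in the 5 Irf1_dXCR1 plates, against 45.3, 41.3, 149 and 105 CPM in the 4 Irf1_FF plates. Of the 5 Irf1_dXCR1 plates 3 were under every Irf1_FF plate. Dscc1 (chromosome 15, 55076099 to 55090491) was the member whose groups did not overlap, with 0, 0, 0, 18.5 and 0 CPM in the 5 Irf1_dXCR1 plates, against 51.3, 22.2, 28.5 and 40.5 CPM in the 4 Irf1_FF plates. Dscc1 was found in only 20 cells over all plates, so its plate values rest on few cells. Of all 16203 genes tested, 0.562% had every Irf1_dXCR1 plate under every Irf1_FF plate. Among the polymerase and lagging-strand genes, Prim1 (chromosome 10, 128015168 to 128030037), the primase, had 29.5, 136, 40.8, 33.3 and 15.9 CPM in the 5 Irf1_dXCR1 plates, against 20.6, 85.6, 67.9 and 78.1 CPM in the 4 Irf1_FF plates, with Irf1_dXCR1 replicate 2 highest of all 9 plates. The flap nuclease Fen1 (chromosome 19, 10199132 to 10204169) had 37.1, 10.7, 27.4, 85.6 and 56.5 CPM in the 5 Irf1_dXCR1 plates, against 39, 52.4, 49.3 and 81.5 CPM in the 4 Irf1_FF plates. Both overlapped between groups.

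Of the genes that supply nucleotides, Rrm2 (chromosome 12, 24708241 to 24714146) had 47.4, 0, 0, 161 and 74.3 CPM in the 5 Irf1_dXCR1 plates, against 113, 80.1, 227 and 188 CPM in the 4 Irf1_FF plates. Irf1_dXCR1 replicates 2 and 3 held no UMI of it, while replicate 4 lay within the Irf1_FF range. Tyms (chromosome 5, 30058202 to 30073617), the thymidylate synthase, had 107, 1.30, 0, 97.5 and 63.2 CPM in the 5 Irf1_dXCR1 plates, against 74.3, 135, 145 and 165 CPM in the 4 Irf1_FF plates, with replicates 2 and 3 again low. In the chromatin group, Slbp (chromosome 5, 33634952 to 33652574) had 236, 111, 111, 245 and 203 CPM in the 5 Irf1_dXCR1 plates, against 182, 134, 183 and 195 CPM in the 4 Irf1_FF plates and overlapped throughout. Uhrf1 (chromosome 17, 56303321 to 56323486) had 30.1, 0, 0, 51.6 and 61.8 CPM in the 5 Irf1_dXCR1 plates, against 65, 28.4, 85 and 86.8 CPM in the 4 Irf1_FF plates, and 2 of the Irf1_dXCR1 plates held none. The regulators were sparse: Ccne2 (chromosome 4, 11191351 to 11204779) had 0, 0, 0, 55.7 and 8.94 CPM in the 5 Irf1_dXCR1 plates, against 12, 32.4, 37.3 and 10.1 CPM in the 4 Irf1_FF plates, and E2f1 (chromosome 2, 154559407 to 154569892) had 22, 0, 0, 17.9 and 9.85 CPM in the 5 Irf1_dXCR1 plates, against 7.35, 21.8, 2.00 and 59.8 CPM in the 4 Irf1_FF plates. For 24 of 37 members the highest Irf1_dXCR1 plate was replicate 4. Irf1_FF replicate 4 was the highest Irf1_FF plate for 18.

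**Figure D3:**
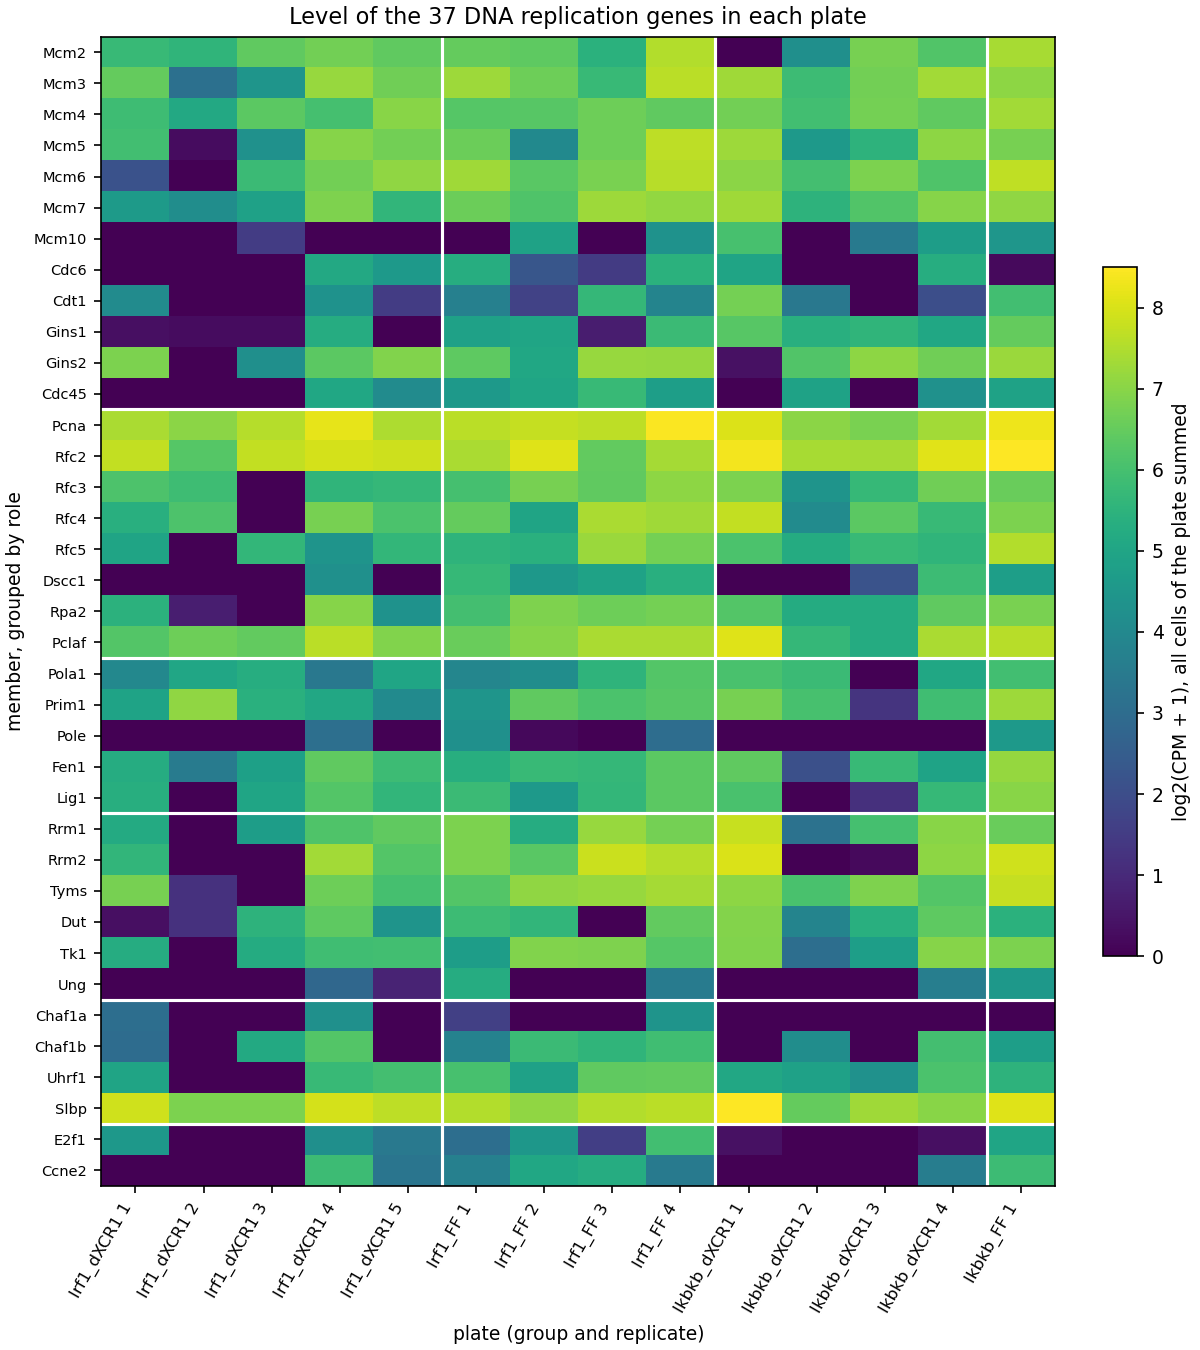
Heat map of log2(CPM + 1) of the 37 members (rows, grouped by role with white lines) in the 14 plates (columns, grouped by genotype), with all cells of a plate summed. Dark cells are plates with no or few UMIs, which are most frequent in Irf1_dXCR1 replicates 2 and 3, where 19 and 15 members had no UMI, and in Ikbkb_dXCR1 replicates 2 and 3, where 10 each had none.

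No member passed the test between Irf1_dXCR1 and Irf1_FF. Of the 37 members 35 had a log2 fold change under 0, where 50.2% of the 16203 genes tested did, and their median was -0.97. Only Rfc2 and Slbp lay above 0. None of the 37 reached an adjusted p under 0.05 in edgeR's quasi-likelihood test, as none of all genes did (0% called), and none had an unadjusted p under 0.05, where 7.85% of all genes did. DESeq2 called 100 genes and limma on the mean log values called none, with no member among them. The helicase and licensing genes were under 0 for 12 of 12, the clamp, loader and single-strand binding genes for 7 of 8, the polymerase group for 5 of 5, nucleotide supply for 6 of 6, the chromatin group for 3 of 4 and the regulators for 2 of 2. Many members were found together in the same cells. Their signs are therefore not independent, here and in the comparisons below, and these counts are a description. Mcm3 averaged 72.2 ± 57.2 CPM in Irf1_dXCR1 (SD, n = 5) and 125 ± 61.8 CPM in Irf1_FF plates (SD, n = 4), a log2 fold change of -0.79 with a standard error of 0.70 (adjusted p = 1 in edgeR). Pcna averaged 190.3 ± 60.8 CPM in Irf1_dXCR1 (SD, n = 5) and 240.3 ± 71.5 CPM in Irf1_FF plates (SD, n = 4), or -0.34 with a standard error of 0.35 (adjusted p = 1 in edgeR). The smallest p among the members belonged to Mcm7, at 46.2 ± 40 CPM in Irf1_dXCR1 (SD, n = 5) and 114 ± 37.6 CPM in Irf1_FF plates (SD, n = 4) and a log2 fold change of -1.30 with a standard error of 0.62 (adjusted p = 0.519 in edgeR). Rfc5 stood at -1.53 with a standard error of 0.99 (adjusted p = 0.698 in edgeR) on the same scale and Mcm6 at -1.18 with a standard error of 1.05 (adjusted p = 1 in edgeR). Rfc2 stood at 0.18 with a standard error of 0.40 (adjusted p = 1 in edgeR) and Slbp at 0.06 with a standard error of 0.42 (adjusted p = 1 in edgeR), and both turned under 0 under some settings given in the closing section. Fold changes of members with plates at 0, such as Mcm10 at -4.96 with a standard error of 2.55 (adjusted p = 0.519 in edgeR), are uncertain. Without Irf1_dXCR1 replicate 2, the plate with the fewest genes per cell, 34 of 37 were under 0 and the median was -0.86. Without replicate 4 the median was -1.48.

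The mix of cells differed between these plates. Xcr1+ Ccr7- cells, in which the members were detected most often, made up 11.9%, 10.8%, 13.8%, 34.7% and 24.5% of the cells of Irf1_dXCR1 plates, against 37.2%, 17.5%, 22.6% and 37.3% in Irf1_FF plates. Irf1_dXCR1 replicates 1, 2 and 3 lay under every Irf1_FF plate. Among markers of other cells, 7 of 7 fibroblast genes and 6 of 6 NK cell genes had a fold change under 0, while 8 of 14 cDC1, 7 of 12 mature dendritic cell and 5 of 12 macrophage genes did, and none was called. The summed fibroblast markers ran from 152 to 4206 CPM in Irf1_dXCR1 and from 76.7 to 6520 CPM in Irf1_FF plates. The summed NK cell markers ran from 0.427 to 72.5 CPM in Irf1_dXCR1 and from 0 to 492 CPM in Irf1_FF plates, with 4 of the 6 genes at 0 in Irf1_dXCR1. The part of the cell mix in the members' values was not tested.

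Averaging log2(CPM + 1) over cells and then over the 37 members gave 0.525, 0.191, 0.415, 1.01 and 1.09 in Irf1_dXCR1 plates, against 1.19, 0.722, 0.644 and 1.13 in Irf1_FF plates. The Irf1_dXCR1 plates spread wider and 3 of the 5 were lower than every Irf1_FF plate. The mean over all 21205 genes ran from 0.345 to 0.820 in Irf1_dXCR1 and from 0.450 to 0.797 in Irf1_FF plates. Irf1_dXCR1 replicate 2 was lowest in both measures and also in genes per cell: median genes were 1577, 705, 1275, 2003 and 2241 in Irf1_dXCR1, against 2208, 1094, 1092 and 1981 in Irf1_FF plates. The plate medians averaged 1560 ± 607 and 1594 ± 586 genes (SD; exact permutation p = 0.952, two-sided, where 0.0079 is the smallest possible).

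**Figure D4:**
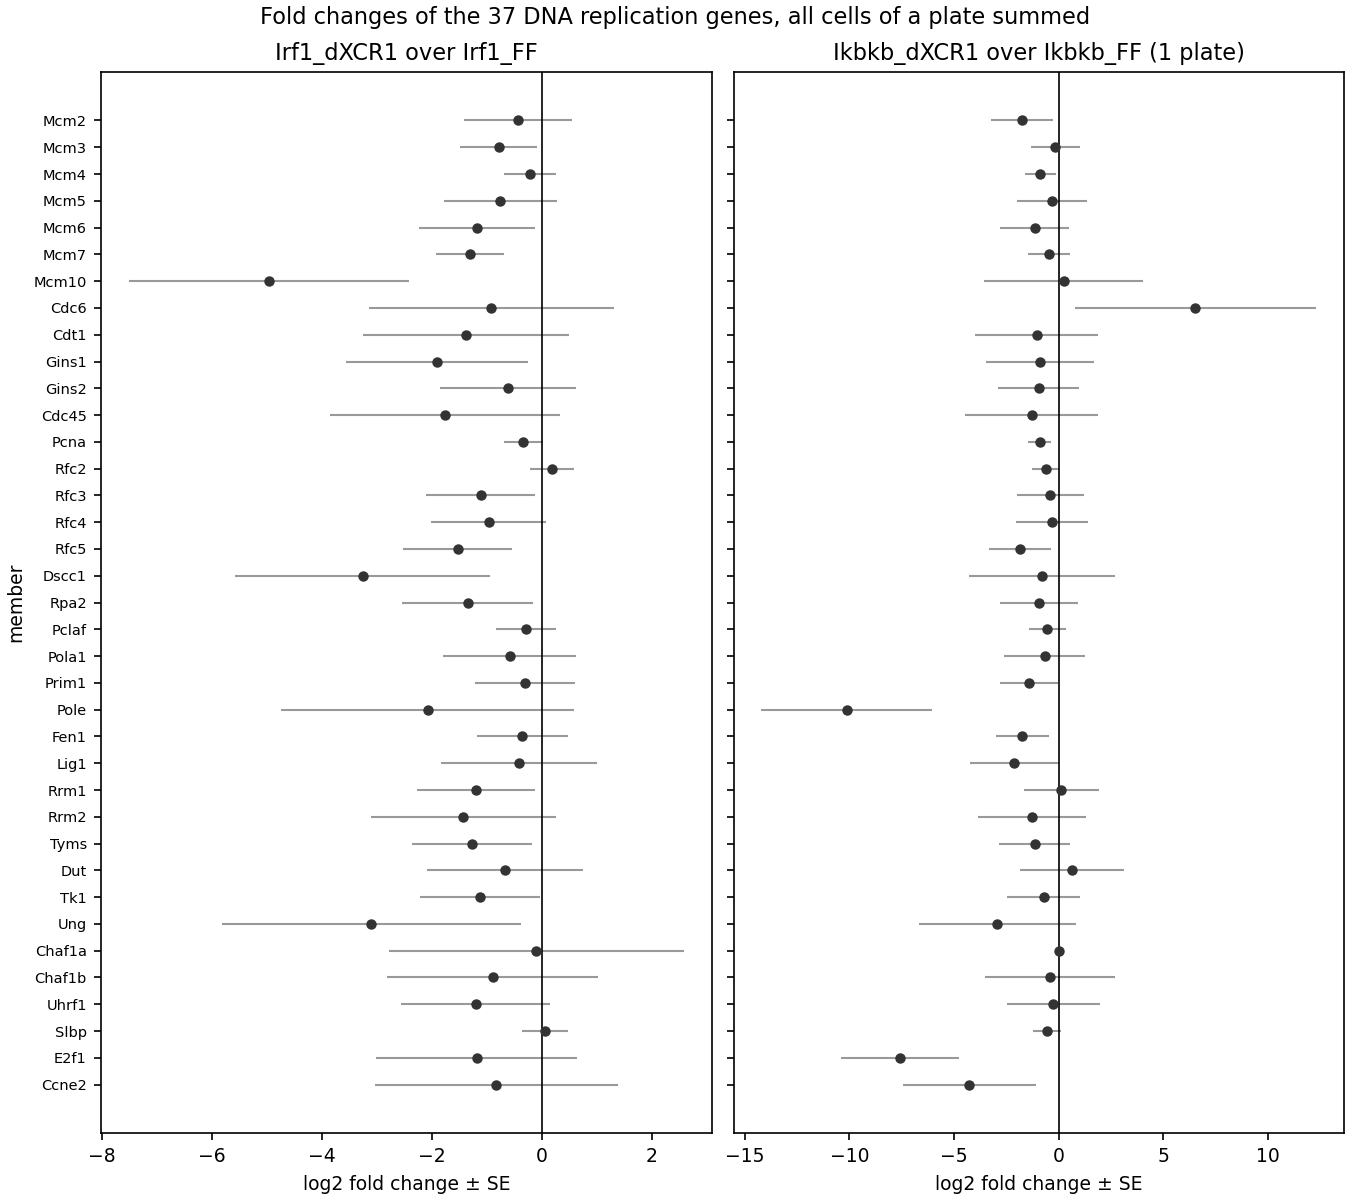
Log2 fold change of each member with its standard error (horizontal bars) in Irf1_dXCR1 over Irf1_FF (left) and Ikbkb_dXCR1 over Ikbkb_FF (right), with 0 as a vertical line and different x scales. Of the 37 points 35 on the left and 32 on the right lie under 0, and none of them has an adjusted p under 0.05.

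Shares of cells gave another view. Cells with 5 or more members made up 8.47%, 5.41%, 10.3%, 26.5% and 40.8% of the cells of the Irf1_dXCR1 plates, against 30.2%, 20%, 12.9% and 23.5% in the Irf1_FF plates. Irf1_dXCR1 replicate 5 held the highest share of all 9 plates and replicates 1, 2 and 3 the lowest. The means were 18.3 ± 15.0% in Irf1_dXCR1 (SD, n = 5) and 21.7 ± 7.22% in Irf1_FF plates (SD, n = 4). In Xcr1+ Ccr7- cells alone it was 2 of 7, 1 of 4, 1 of 4, 4 of 17 and 9 of 12 cells in Irf1_dXCR1, against 6 of 16, 4 of 7, 2 of 7 and 10 of 19 cells in Irf1_FF plates. That is a mean of 35.4 ± 22.2% in Irf1_dXCR1 and 44.0 ± 13.3% in Irf1_FF plates, and the ranges overlapped. The difference was -8.54 percentage points, which became -18.4 without Irf1_dXCR1 replicate 5, where 75% of 12 cells had 5 or more, and -4.15 without Irf1_FF replicate 2. It was -5.57 without Irf1_dXCR1 replicate 4, -5.65 without Irf1_FF replicate 4, -13.7 without Irf1_FF replicate 3 and -13.6 with C1qa+ cells left out. With a limit of 3 members it was -33.4 points (44.1% in Irf1_dXCR1 and 77.5% in Irf1_FF plates). Ikbkb_dXCR1 plates had 1 of 6, 5 of 13, 3 of 5 and 3 of 13 such cells, against 7 of 19 (36.8%, 95% exact interval 16.3 to 61.6%) in Ikbkb_FF.

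**Figure D5:**
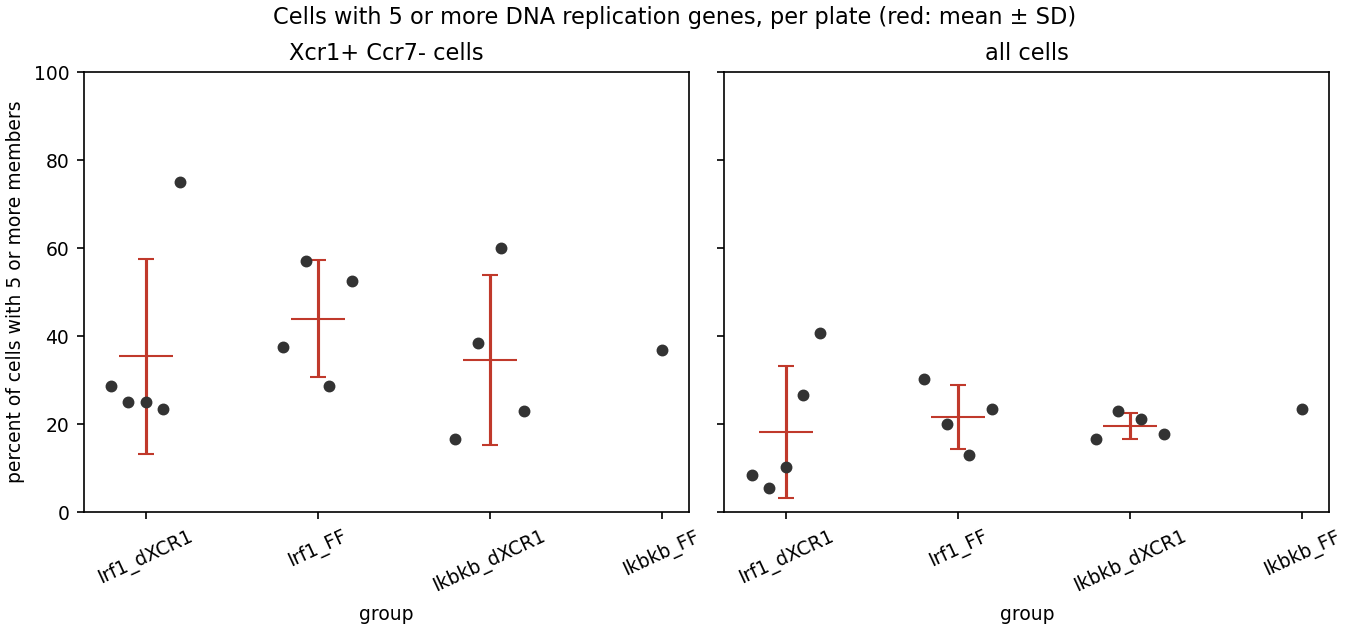
Percent of cells with 5 or more members in each plate (points), with the mean ± SD of each group of more than 1 plate in red, for Xcr1+ Ccr7- cells (left) and all cells (right). Irf1_dXCR1 replicate 5 lies at 75% on the left and 40.8% on the right, above the other Irf1_dXCR1 plates.

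Within Xcr1+ Ccr7- cells the count of members under 0 depended on single plates. Only plates with 10 or more such cells were used, 2 in each Irf1 group, and 33 of 37 members had a log2 fold change under 0, with a median of -0.77, where 47.8% of 11569 genes did. No gene was called in edgeR (0%), 2.04% of all genes and none of the members had an unadjusted p under 0.05, and DESeq2 called 105 genes, with no member among them. Pcna had 271 and 284 CPM in the 2 Irf1_dXCR1 plates and 311 and 485 CPM in the 2 Irf1_FF plates, a log2 fold change of -0.52 with a standard error of 0.45 (adjusted p = 1 in edgeR). Mcm3 had 130.1 and 224 CPM in the 2 Irf1_dXCR1 plates and 257 and 346 CPM in the 2 Irf1_FF plates and a log2 fold change of -0.77 with a standard error of 0.56 (adjusted p = 1 in edgeR), and Mcm6 had 29.9 and 250.1 CPM in the 2 Irf1_dXCR1 plates and 169 and 345 CPM in the 2 Irf1_FF plates and a log2 fold change of -0.88 with a standard error of 0.78 (adjusted p = 1 in edgeR). Rfc2 had 228 and 511 CPM in the 2 Irf1_dXCR1 plates and 199.7 and 292 CPM in the 2 Irf1_FF plates, or 0.59 with a standard error of 0.47 (adjusted p = 1 in edgeR). Of the remaining genes with the smallest p, Dscc1 had 6.04 and 0 CPM in the 2 Irf1_dXCR1 plates and 77 and 72.2 CPM in the 2 Irf1_FF plates, while Pole had 0 and 0 CPM in the 2 Irf1_dXCR1 plates and 18 and 13 CPM in the 2 Irf1_FF plates and Ung, the uracil glycosylase, 0 and 0 CPM in the 2 Irf1_dXCR1 plates and 43.2 and 17.7 CPM in the 2 Irf1_FF plates. Mcm4, a helicase subunit, had 42 and 267 CPM in the 2 Irf1_dXCR1 plates and 106 and 150.4 CPM in the 2 Irf1_FF plates and Fen1 35.3 and 129 CPM in the 2 Irf1_dXCR1 plates and 23 and 122 CPM in the 2 Irf1_FF plates. Without Irf1_FF replicate 4 the count under 0 fell to 15 and the median turned to 0.16. Without Irf1_dXCR1 replicate 4 it was 22 and -0.42, and without replicate 5 it was 35 and -2.25.

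In the Ikbkb comparison the control was a single plate, and its spread was assumed to be that of the other groups. Of the 37 members 32 had a log2 fold change under 0, with a median of -0.87, and Chaf1a had no UMI in any of the 5 plates. Of all 16203 genes 31.8% were under 0, with 5152 under it, 7713 above it and the rest at 0. Genes without a direction thus lower that share. No gene was called (0%), and 2 members had an unadjusted p under 0.05, where 4.36% of all genes did. DESeq2 called 1180 genes and limma on mean log values 203, with no member in either. E2f1 had 0.295, 0, 0 and 0.269 CPM in the 4 Ikbkb_dXCR1 plates, against 31.1 CPM in the Ikbkb_FF plate, an unadjusted p of 0.0157 and an adjusted p of 1 in edgeR. Pole had 0, 0, 0 and 0 CPM in the 4 Ikbkb_dXCR1 plates, against 22.6 CPM in the Ikbkb_FF plate (unadjusted p = 0.0275, adjusted p = 1 in edgeR). Pole was not detected in the 4 plates together. The floor of 3 counts, 0.145 CPM, treats UMIs as independent. Cells with Pole held a median of 56 UMIs, so that floor is no upper limit of its level. Over all plates E2f1 was found in 18 cells and Pole in 7, with at most 188 and 137 UMIs in a cell. The values of both in the control plate can therefore rest on very few cells. Pcna had 267, 129, 109.8 and 159 CPM in the 4 Ikbkb_dXCR1 plates, against 309 CPM in the Ikbkb_FF plate and a log2 fold change of -0.90 with a standard error of 0.55 (adjusted p = 1 in edgeR), and every Ikbkb_dXCR1 plate lay under the control. This held for 18 of the 37 members, where 16% of all genes had every Ikbkb_dXCR1 plate under the Ikbkb_FF plate. A gene without a UMI in the control plate cannot do so, which lowers the share of all genes. Members above 0 were Cdc6 with 30.4, 0, 0 and 38.4 CPM in the 4 Ikbkb_dXCR1 plates, against 0.165 CPM in the Ikbkb_FF plate, Dut with 121, 13.2, 40.6 and 83.9 CPM in the 4 Ikbkb_dXCR1 plates, against 41.8 CPM in the Ikbkb_FF plate and Rrm1, the large subunit of ribonucleotide reductase, with 218, 8.22, 62.4 and 127 CPM in the 4 Ikbkb_dXCR1 plates, against 94.5 CPM in the Ikbkb_FF plate, as well as Mcm10. Ikbkb_dXCR1 replicate 1 was the highest of its group for 24 members. Restricted to the 2 Ikbkb_dXCR1 plates of 8-week mice, the control's age, 31 of 37 were under 0 and the median was -0.84.

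Here too the mix of cells differed. Xcr1+ Ccr7- cells made up 33.3%, 50%, 13.2% and 25.5% of the cells of Ikbkb_dXCR1 plates, against 55.9% in the Ikbkb_FF plate, which lay above them all. Fold changes were over 0 for 10 of 12 macrophage, 10 of 12 mature dendritic cell and 7 of 7 fibroblast markers and for 4 of 14 cDC1 markers, and none was called. The summed macrophage markers ran from 615 to 3339 CPM in Ikbkb_dXCR1 plates, against 1111 CPM in Ikbkb_FF, and the fibroblast markers from 40.7 to 691 CPM, against 28.1 CPM. The mature dendritic cell markers ran from 2133 to 3805 CPM in Ikbkb_dXCR1 plates, against 2139 CPM in Ikbkb_FF. The part of these cells in the members' values was not tested.

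Among the 12 most abundant members by role, 8 were highest in the control plate, where 16% of all genes were. Mcm3 had 156, 55.5, 103 and 159.7 CPM in the 4 Ikbkb_dXCR1 plates, against 131 CPM in the Ikbkb_FF plate, Mcm6 129, 60.8, 111 and 71 CPM in the 4 Ikbkb_dXCR1 plates, against 205 CPM in the Ikbkb_FF plate, and Rfc2 329, 169, 162 and 279.6 CPM in the 4 Ikbkb_dXCR1 plates, against 362 CPM in the Ikbkb_FF plate. Prim1 had 107, 64, 1.43 and 58.3 CPM in the 4 Ikbkb_dXCR1 plates, against 154 CPM in the Ikbkb_FF plate and Fen1 85.7, 3.23, 51.9 and 29.4 CPM in the 4 Ikbkb_dXCR1 plates, against 141 CPM in the Ikbkb_FF plate, so that the control plate was highest in both. Rrm2 had 258, 0, 0.159 and 132 CPM in the 4 Ikbkb_dXCR1 plates, against 238 CPM in the Ikbkb_FF plate, with Ikbkb_dXCR1 replicate 1 above the control and replicates 2 and 3 near 0. Tyms had 131, 65.8, 116 and 74.3 CPM in the 4 Ikbkb_dXCR1 plates, against 214 CPM in the Ikbkb_FF plate and Slbp 362, 89.6, 155 and 126 CPM in the 4 Ikbkb_dXCR1 plates, against 269 CPM in the Ikbkb_FF plate. Uhrf1 had 33.7, 28.5, 18.6 and 67.2 CPM in the 4 Ikbkb_dXCR1 plates, against 44.3 CPM in the Ikbkb_FF plate. Ccne2 had 0, 0, 0 and 11.3 CPM in the 4 Ikbkb_dXCR1 plates, against 55.3 CPM in the Ikbkb_FF plate, and 3 of these plates held none. For 27 of the 37 members the Ikbkb_FF plate stood above the 3 means of the other groups. The share of all genes that did so was not counted. A single plate is more often extreme than a mean of several, so the count is a description. The 2 comparisons were then set against each other: the difference between the Irf1 and the Ikbkb fold change was under 0 for 22 of 37 members, where 58.9% of all genes were, and none of them or of the other genes was called (0% in edgeR, with 543 of 16203 genes and none of the 37 at an unadjusted p under 0.05). DESeq2 called 900 genes there and no member. Since all Irf1 plates belong to one experiment and all Ikbkb plates to another, gene and experiment cannot be told apart.

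Other genes of the replication programme, listed for this purpose, had fold changes on both sides of 0 in the Irf1 comparison. Of 52 further replication genes 30 were under 0, of 35 E2F and G1 to S phase regulators 21, of 22 genes of replication stress and repair 17 and of 40 genes of G2 and M phase 34, each against 50.2% of all genes, and none was called. In the Ikbkb comparison the counts under 0 were 28, 18, 7 and 13, against 31.8% of all genes, a share lowered by genes with a fold change of 0.

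Inside the Xcr1+ Ccr7- class, the cells with 5 or more members were compared with the rest plate by plate, in the 8 plates with at least 3 cells on each side (48 and 68 cells). The cells with 5 or more were richer, with medians of 2492 genes and 242032 UMIs, against 1938 genes and 166694 UMIs in the others. Outside the 37 members 13 of 9427 genes were called (0.138%), 6 higher and 7 lower in edgeR with the plate as a block. Tubb5 (chromosome 17), a beta-tubulin, was found in 42 of the 48 cells with 5 or more members and 22 of the 68 others, at 917 ± 239 CPM in cells with 5 or more members and 209.9 ± 150.3 CPM in the others (SD, n = 8 plates each). The log2 difference was 2.55 ± 0.54 (SE, edgeR adjusted p = 0.00935), higher in 8 of 8 plates. Asf1b (chromosome 8), a histone chaperone, was found in 24 of the 48 cells with 5 or more members and 2 of the 68 others. Tipin (chromosome 9), which steadies stalled forks, was found in 28 of the 48 cells with 5 or more members and 5 of the 68 others, and Cdca8, a subunit of the mitotic chromosomal passenger complex, in 14 of the 48 cells with 5 or more members and 1 of the 68 others. Exosc2, an RNA exosome subunit, was found in 20 of the 48 cells with 5 or more members and 2 of the 68 others, and Fignl1, an AAA ATPase of DNA repair, in 17 of the 48 cells with 5 or more members and 0 of the 68 others. Asf1b, Tipin, Cdca8, Exosc2 and Fignl1 had no UMI in the other cells of 5 to 8 of the 8 plates. Their fitted folds and p-values are not given. The sides were chosen by the number of replication genes, so higher cell cycle genes there are a description. With upper-quartile factors, or with a limit of 3 members, no gene was called, and in cells above the median of genes 5 were. The part of depth in these differences was not tested.

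Genes of the other cell cycle lists were mostly above 0, which is a description, since replication genes chose the cells. Of 47 further replication genes tested 41 had a fold change over 0, of 34 E2F and G1 to S phase regulators 31, of 17 stress and repair genes 14 and of 39 G2 and M phase genes 39, where 57.3% of the genes outside the members did. At an unadjusted p under 0.05 were 19, 6, 3 and 24 of them, where 3.80% of these genes were, and 2, 0, 0 and 1 were called. Top2a was found in 16 of the 48 cells with 5 or more members and 2 of the 68 others and Mki67 in 11 of the 48 cells with 5 or more members and 3 of the 68 others. Hmgb2, a chromatin protein of dividing cells, had 594 ± 357 CPM in cells with 5 or more members and 111 ± 94.9 CPM in the others (SD, n = 8 plates each), and H2afz, the histone variant H2A.Z, 2035 ± 549.6 CPM in cells with 5 or more members and 1921 ± 488 CPM in the others (SD, n = 8 plates each). Neither passed (edgeR adjusted p = 0.596 and 1). Ccnd1 and Cdkn1a, the cyclin D1 and p21 genes, were found in 32 and 21 of the 48 cells, against 25 and 24 of the 68. Of the stress and repair list, Bax, a mediator of apoptosis, was found in 45 of the 48 cells with 5 or more members and 49 of the 68 others and Rad9a, a checkpoint clamp subunit, in 12 of the 48 cells with 5 or more members and 10 of the 68 others. Of 14 cDC1 markers 11 had a fold change under 0 and none was called. Naaa, an acid amidase of cDC1, had 1922 ± 347 CPM in cells with 5 or more members and 2342 ± 586 CPM in the others (SD, n = 8 plates each), and Ifi205 1972 ± 513 CPM in cells with 5 or more members and 2286 ± 868 CPM in the others (SD, n = 8 plates each). Counted in UMIs per cell both were higher in cells with 5 or more members, at 459 against 394 for Naaa and 461 against 380 for Ifi205. Of 9 macrophage markers 8 were under 0, and Lyz2, lysozyme, had 488 ± 343 CPM in cells with 5 or more members and 1173 ± 619 CPM in the others (SD, n = 8 plates each) (edgeR adjusted p = 1). Of 12 mature dendritic cell markers only 6 were tested, 5 of them over 0 and none called. The filter can keep sparse genes found mainly in the richer cells, such as Relb, in 7 of the 48 and 2 of the 68. Cells with Ccr7 are left out of this class. Over all cells a mean of 1.33 of these markers was found in cells with 5 or more members, against 2.89 in the others.

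The 7 genes called lower were among the most abundant of all. Cd74, the invariant chain of MHC class II, had 3796 ± 1189.6 CPM in cells with 5 or more members and 5396 ± 1334 CPM in the others (SD, n = 8 plates each), which is -0.53 ± 0.08 on the log2 scale (SE, edgeR adjusted p = 6.09e-05), lower in 8 of 8 plates. Also called lower, the class II genes H2-Aa, H2-Ab1 and H2-Eb1, the protease inhibitor Cst3, the actin-binding Tmsb4x and the nuclear RNA Malat1 differed by -0.51 to -0.44 on the log2 scale. Counted in UMIs per cell instead of shares, these genes were level or higher in cells with 5 or more members: 908 against 891 UMIs for Cd74, 881 against 883 for H2-Ab1, 784 against 755 for H2-Eb1, 915 against 887 for Cst3 and 836 against 739.6 for Malat1. Counts of 900 or more, close to the most that UMIs of 5 bases can count, occurred for Cd74 in 40 of the 48 cells with 5 or more members and in 52 of the 68 others. Of the 50 most abundant genes 38 were lower as a share and 49 were higher in UMIs per cell. The part of the ceiling in these calls was not tested.

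The sort measured light scatter and protein stains on the same cells. In the 6 plates with at least 3 stained Xcr1+ Ccr7- cells on each side (33 and 45 cells), forward scatter, a measure of cell size, was 12.54 in cells with 5 or more members and 12.59 in the others on the arcsinh scale, a difference of -0.05 ± 0.17 (SD, n = 6; exact sign-flip permutation p = 0.531, two-sided). It was higher in 2 of 6 plates. CD11c staining was 10.0 and 9.46, a difference of 0.54 ± 0.92, and was higher in 5 of 6 plates (exact p = 0.219). XCR1 staining was 8.60 and 8.90 (difference -0.30 ± 0.67, exact p = 0.375) and MHC class II staining 9.06 and 9.12 (difference -0.05 ± 0.32, exact p = 0.906). Of 8 readouts none passed, all with an adjusted p of 1, and 0.031 is the smallest p that 6 plates allow.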

How the data were processed

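The deposited table holds raw UMI counts of 21205 genes in 555 cells. The submitters' processing notes name STAR 2.5.3a, HTSeq 0.9.1, bcl2fastq and the build GRCm38. How cells were filtered is not given in the sources read for this work. In a second deposited file the authors give the mitochondrial and spike-in fraction of each cell and the arcsinh-scaled sort readouts, a score with no fixed range, for 458 cells. UMIs of 5 bases cap what can be counted per gene in a cell. Each well received 1 sorted cell, so doublets were not called.

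Counts were summed per plate, which is 1 tumour and the replicate. After filterByExpr, which left 16203 genes over all cells, and TMM scaling, plates were compared with edgeR 4.0.16 (quasi-likelihood, R 4.3.3, all 14 plates in the fit, two-sided), with Benjamini-Hochberg adjustment over all genes tested and a threshold of 0.05. Cells with 5 or more members were compared within plates, with the plate as a block. Replicate numbers follow accession order and pair nothing. Plate values were compared with exact permutation tests. The alternatives tried were limma 3.58.1 on mean log2(CPM + 1), DESeq2 1.42.0, another scaling (upper-quartile), no filter, cells with 500 or more genes, other sets of plates and cells, other limits, thinning and each plate left out. The closing section gives their effect. On simulated data the test recovered a minority of large changes in the Irf1 comparison and none in that of cells with 5 or more members, so an absence of calls does not show an absence of change.

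The members and gene lists were chosen with earlier results of these data known. Genes named with values are the 2 most abundant members of each role, the 3 with the smallest unadjusted p in each direction of each comparison, up to 12 other genes called in each direction and, of each other list, up to 4 called genes or else its 2 most abundant. Top2a, Mki67, Mcm5 and the members named for their detection were chosen after their values were seen. Lists of other cell types that are not mentioned had no gene called. Positions come from the GENCODE annotation of GRCm38, which matched 21003 symbols, and promoter windows from RefSeq.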

Additional observations from a re-analysis of the deposited data

Results flagged for a closer look

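In 101 groups of 4 to 8 plates, the highest or lowest value was taken to stand apart where its gap to the next, as a part of the group's range, passed Dixon's 95% critical value, and 14 did. Chance gives about 1 in 20 by that rule's nominal level, which need not hold for groups mostly at 0 such as those of Mcm10, Pole and Ccne2. In Irf1_dXCR1 the lowest plate had 75.2 CPM of Rfc2, and the highest plate had 136 CPM of Prim1 (both replicate 2), 55.7 CPM of Ccne2 and 7.61 CPM of Pole (replicate 4) and 1.88 CPM of Mcm10 (replicate 3, the other 4 plates having none). In Irf1_dXCR1 replicate 5, 75% of 12 Xcr1+ Ccr7- cells held 5 or more members, against 23.5 to 28.6% in the other Irf1_dXCR1 plates. Pcna reached 347 CPM in Irf1_FF replicate 4, and Ccne2 11.3 CPM in Ikbkb_dXCR1 replicate 4, the other 3 plates of that group having none. Among Xcr1+ Ccr7- cells with fewer than 5 members, the highest plate had 1.83 CPM of Asf1b, 0.591 CPM of Cdca8 and 109 CPM of Exosc2. The within-plate difference between cells with 5 or more members and the others stood apart at its lowest for CD11c (-1.22) and CD45 (-1.01) in Irf1_dXCR1 replicate 4 and for MHC class II (-0.69) in Ikbkb_dXCR1 replicate 2.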

How the results depend on the processing

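No paired analysis was possible because replicate numbers follow accession order only. The number of members under 0 and their median kept their direction under the alternatives run of the Irf1 comparison over all cells (33 to 36 of 37 under 0, or 32 of 34 tested with only the Irf1 plates, medians -1.48 to -0.25) and of the Ikbkb comparison (29 to 33, -1.11 to -0.42), and no alternative called a member. In Xcr1+ Ccr7- cells the count ran from 15 to 35 and the median from -2.25 to 0.16 as plates were left out, both ends coming from fits with 1 plate in an Irf1 group, which is assumed to vary like the others. With members at 0 in a whole group set to the floor of 3 counts over the group, the medians stayed -0.87 and -0.77. Rfc2 turned to -0.15 with all 5 control plates together and ran from -0.0353 to 0.477 with single plates left out, and in Xcr1+ Ccr7- cells from -0.107 (without Irf1_dXCR1 replicate 5) to 1.06. Slbp turned to -0.13 with all 5 control plates, -0.15 with cells weighted equally, -0.00537 in cells with 500 or more genes, and ran from -0.0682 to 0.196 (-0.0419 and -0.0489 in other cases) with single plates left out. In the Ikbkb comparison Cdc6 turned to -0.0202 with all 5 control plates, and Rrm1 to -0.41 with cells weighted equally and ran from -0.518 (without Ikbkb_dXCR1 replicate 1) to 0.524. The count of 13 genes called outside the members in cells with 5 or more of them became 573 in DESeq2, 0 with upper-quartile factors, 0 with a limit of 3 members and 5 in cells above the median of genes, and ran from 8 to 14 with single plates left out (8 without Irf1_FF replicate 2). The cause was not tested. The share difference between Irf1_dXCR1 and Irf1_FF was -33.4 percentage points with a limit of 3 members, and -18.4 to -4.15 with single plates left out. The difference in median genes per cell, -33.4 genes, was -204 to 180.4 with single plates left out. None of the sort readouts passed under any setting, and SSC (0.0618), CD11b (4.14), CD11c (-0.0340) and CD64 (0.0889) changed sign with a limit of 3 members, XCR1 (0.16), MHC class II (0.58) and CD45 (0.0407) in cells above the median of genes, and CD11b (-3.68 to 0.227), MHC class II (-0.107 to 0.0737), CD64 (-0.997 to 0.619) and CD45 (-0.115 to 0.195) with single plates left out. The difference between Xcr1+ Ccr7- and Ccr7+ cells stayed at 27.7 to 32.7 percentage points. Shares rest on as few as 4 cells in a plate, which limits their precision.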
